A study of Mus musculus with 10 samples.

Results

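The 10 genes described here carry costimulation and maturation functions of dendritic cells (DCs): Cd80, Cd86, Icosl, Cd274, Pdcd1lg2, Cd40, Ccr7, Cd83, Fscn1 and Socs2. They were chosen by name among the 52550 genes of the deposited table, and each name matched 1 gene. RNA was sequenced in 10 libraries of sorted precursors of conventional DCs (cDCs) from the spleen of C57BL/6 mice: 2 libraries of pre-cDC2 from CD11c-cre Adam10fl/fl mice (KO), 2 of pre-cDC2 from wild-type mice (WT), 3 of pre-cDC1 from KO mice and 3 of pre-cDC1 from WT mice. The sample titles call pre-cDC2 "Ly6C" and pre-cDC1 "DN". In KO mice, Cre made under the CD11c (Itgax) promoter, which is active in DCs and some other leukocytes, removes a loxP-flanked part of Adam10, a membrane protease that releases surface proteins. The study asked how shedding of FLT3L by ADAM10 bears on cDC development. The labels give no age, and they do not say whether libraries came from separate or pooled animals, so p-values measure only the spread between these libraries, which may be technical.

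A DC that presents antigen to a T cell adds further signals through surface ligands. CD80 and CD86 bind CD28, which promotes T cell activation, and CTLA-4, which limits it, while ICOSL binds ICOS, and PD-L1 (Cd274) and PD-L2 (Pdcd1lg2) bind the inhibitory receptor PD-1. CD40 on the DC receives CD40L from T cells and signals through NF-kB. During maturation DCs raise these ligands together with CCR7, the chemokine receptor that guides them to T cell zones, CD83, which stabilises MHC class II and CD86 at the surface, and fascin (Fscn1), an actin-bundling protein. SOCS2 is a feedback inhibitor induced by STAT5 downstream of cytokines such as GM-CSF.

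Recovered totals ranged from 7862449 to 13177686 reads per library. Levels are given as log2 RPKM (reads per kilobase of gene length, scaled by the authors to library size), which allows levels to be compared between genes. Whole reads behind each value were recovered from the deposited numbers. Differences are on the log2 scale and positive where KO exceeds WT or pre-cDC2 exceeds pre-cDC1, and they were tested with limma over 14787 genes at a Benjamini-Hochberg adjusted p threshold of 0.05.

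The labelled cells were checked against marker lists. Markers of the pre-cDC1 side (Irf8, Batf3, Xcr1, Clec9a, Cadm1, Id2) averaged 2.35 to 2.84 log2 RPKM in pre-cDC2 and 7.03 to 7.41 in pre-cDC1. Markers of the pre-cDC2 side (Irf4, Sirpa, Ly6c2, Cx3cr1, Csf1r, Cd209a) averaged 5.73 to 7.06 in pre-cDC2 and 1.39 to 4.18 in pre-cDC1. Ly6c2 is a gene of the Ly6C label of these libraries, so part of this difference may be built in. Between the cell types, all 6 of these markers passed in KO mice (10.7% of tested genes rose) and 1 in WT mice (4.88%). T cell markers were also high in pre-cDC2: their 14 genes averaged 6.16 and 6.12 log2 RPKM in KO pre-cDC2, 2.72 in replicate 2 and 6.57 in replicate 3 of WT pre-cDC2, and -3.01 to 0.10 in pre-cDC1. Their summed RPKM was 1859 and 1721 in KO pre-cDC2, 143 and 2629 in WT pre-cDC2, 4.46 to 5.89 in pre-cDC1 of KO mice and 12.7 to 24.5 in pre-cDC1 of WT mice. The T cell receptor component gene Cd3e had 5.18 and 5.51 log2 RPKM in KO pre-cDC2 and 1.32 and 6.18 in WT pre-cDC2. NK cell markers ran in parallel, with means of 5.70 and 5.60 in KO pre-cDC2, 1.75 and 5.87 in the WT pair of pre-cDC2 and -2.96 to 1.18 over pre-cDC1. The cDC list shares Irf8 and Batf3 with the pre-cDC1 list, so part of its difference between the cell types is built in. Means of the cDC list were 6.04 and 5.90 in KO pre-cDC2, 7.15 and 5.64 in WT pre-cDC2 and 8.50 to 8.69 in pre-cDC1. Those of the plasmacytoid DC list were 4.67 and 5.04 in KO pre-cDC2, 5.77 and 4.39 in WT pre-cDC2 and 1.32 to 2.29 in pre-cDC1. WT pre-cDC2 replicate 2 therefore stood apart. Its log2 RPKM values correlated with those of replicate 3 at r = 0.774 across genes, and 5205 genes differed by more than 2-fold (the other pairs of replicates gave 0.867 to 0.886 and 2632 to 3194 genes). Differences of the 10 genes between WT pre-cDC2 and WT pre-cDC1 are given with and without it below. In bulk libraries, fewer cells of a type and less RNA per cell cannot be told apart.

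Adam10 itself had 4.24 and 4.11 log2 RPKM in KO pre-cDC2 and 1.76 and 4.53 in WT pre-cDC2. In pre-cDC1 it was near the detection limit, with 9, 3 and 13 reads in KO and 28, 48 and 10 reads in WT. Whole-gene values include exons outside the deleted part, so they do not check the genotype labels.

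Cd86 separated the cell types most clearly. This gene (GRCm38 chr16:36603869-36666081, minus strand) had 1.69 and 1.63 log2 RPKM in KO pre-cDC2, 2.40 and 2.16 in WT pre-cDC2, 6.92, 6.89 and 6.77 in KO pre-cDC1, and 6.72, 6.57 and 6.43 in WT pre-cDC1. No 2 groups overlapped, and the order of levels was KO pre-cDC1, WT pre-cDC1, WT pre-cDC2 and KO pre-cDC2. The values rest on 99 to 266 reads per pre-cDC2 library and 3026 to 4546 reads per pre-cDC1 library. Cd86 was 36.6-fold lower in pre-cDC2 than in pre-cDC1 of KO mice (log2 difference -5.19 ± 0.14 SE, adjusted p = 7.86e-08) and 19.6-fold lower in WT mice (-4.29 ± 0.14, adjusted p = 3.84e-07). Both differences passed the threshold in each of the 19 alternative fits. With WT pre-cDC2 replicate 2 left out, the WT difference was -4.41, and without replicate 3 it was -4.17.

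Cd80, the other CD28 ligand, lies 1789480 bases from Cd86 on the same chromosome (chr16:38455561-38496335, plus strand) and was less abundant. It had 0.65 and 0.71 log2 RPKM in KO pre-cDC2, 2.54 and 0.58 in WT pre-cDC2, 3.29, 3.05 and 3.3 in KO pre-cDC1, and 3.09, 3.23 and 3.42 in WT pre-cDC1. Every pre-cDC2 library was below every pre-cDC1 library, and within each cell type the KO and WT ranges overlapped. In KO mice Cd80 was 5.80-fold lower in pre-cDC2 (-2.54 ± 0.47, adjusted p = 0.00512). In WT mice it was 3.22-fold lower (-1.69 ± 0.47), with an adjusted p of 0.0495 at the threshold. The high value of WT pre-cDC2 replicate 2 sets that estimate: without this library the difference was -2.67 (adjusted p = 0.000332), and without replicate 3 it was -0.70 (adjusted p = 0.124). Of the 19 alternatives, 4 kept the WT call, and leaving out any library other than WT pre-cDC2 replicate 2 ended it, with adjusted p of 0.0728 to 0.127. The 24 to 28 reads of the other pre-cDC2 libraries compare with 136 in replicate 2.

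The balance of both CD28 ligands differed as well. Cd86 exceeded Cd80 by 1.04 and 0.93 log2 RPKM in KO pre-cDC2 and by -0.14 and 1.58 in WT pre-cDC2. In pre-cDC1 the same difference was 3.62, 3.84 and 3.47 in KO and 3.62, 3.34 and 3.01 in WT. The pre-cDC1 values were all above the pre-cDC2 values, while KO and WT overlapped in both cell types.

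Icosl (chr10:78069302-78083913, plus strand) was the ligand with the most even level. It had 4.18 and 3.89 log2 RPKM in KO pre-cDC2, 5.09 and 3.59 in WT pre-cDC2, 4.21, 4.36 and 4.19 in KO pre-cDC1, and 4.70, 4.78 and 5.10 in WT pre-cDC1. In pre-cDC1 all KO libraries were below all WT libraries, whereas the WT pre-cDC2 pair covered almost the whole range. The difference between cell types was -0.22 ± 0.36 in KO (adjusted p = 0.721; 95% interval -1.02 to 0.59) and -0.52 ± 0.36 in WT (adjusted p = 0.412). With WT pre-cDC2 replicate 2 left out, the WT difference was -1.27 (adjusted p = 0.00354), and without replicate 3 it was 0.23, with the opposite sign.

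The PD-1 ligand genes Cd274 (chr19:29367455-29388095) and Pdcd1lg2 (chr19:29410919-29471161) lie 22824 bases apart on the plus strand. Cd274 had 3.36 and 3.52 log2 RPKM in KO pre-cDC2, 2.27 and 3.56 in WT pre-cDC2, 0.76, 0.07 and -1.29 in KO pre-cDC1, and 0.34, 1.39 and 1.34 in WT pre-cDC1. Its pre-cDC2 libraries were all above its pre-cDC1 libraries, opposite to Cd80 and Cd86. In KO mice Cd274 was 12.1-fold higher in pre-cDC2 (3.59 ± 0.64, adjusted p = 0.00415), and in WT mice the difference was 1.89 ± 0.64 without passing the threshold (adjusted p = 0.0943; 2.54 and 0.0595 without WT pre-cDC2 replicate 2, 1.25 and 0.428 without replicate 3). It passed without KO pre-cDC1 replicate 3 (adjusted p = 0.0487). Cd86 minus Cd274 was -1.67 and -1.88 log2 RPKM in KO pre-cDC2, 0.13 and -1.40 in WT pre-cDC2, and 5.09 to 8.06 in pre-cDC1. Cd86 thus had the higher level in every pre-cDC1 library, and Cd274 in 3 of the 4 pre-cDC2 libraries.

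Pdcd1lg2 was detected sparsely. It had 17 and 20 reads in KO pre-cDC2, 6 and 65 in WT pre-cDC2, 0, 14 and 0 in KO pre-cDC1, and 10, 0 and 13 in WT pre-cDC1. Its difference between cell types was 4.39 ± 2.29 in KO (adjusted p = 0.217) and 2.31 ± 2.29 in WT (adjusted p = 0.59), with 95% intervals that include 0. The WT difference was 4.14 without WT pre-cDC2 replicate 2 (adjusted p = 0.386) and 0.47 without replicate 3 (adjusted p = 0.967). At this depth no difference was detectable for Pdcd1lg2. It exceeded 0 log2 RPKM in 3 libraries, all of them pre-cDC2, and so entered the test through that cell type.

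Promoter sequences from RefSeq (GRCm38.p6) matched 5 of the 10 genes: Cd274, Cd80, Fscn1, Icosl and Pdcd1lg2. The 250 bases before the RefSeq start are shown, 5′ to 3′ on the gene's strand, for 3 ligands with unlike patterns: Cd80, lower in pre-cDC2, Cd274, higher in KO pre-cDC2, and Icosl, without a call in either genotype. The windows are chr16:38458683-38458932, chr19:29367188-29367437 and chr10:78069118-78069367. RefSeq starts differ from the gene coordinates given above. The Cd80 window lies inside the gene as given there, and the Icosl window runs past its start. Motif distances refer to the RefSeq starts. Capitals mark the motif matches, an AP-1 site (TGANTCA) in Cd80 and a GC box (GGGCGG) in the others.
Cd80: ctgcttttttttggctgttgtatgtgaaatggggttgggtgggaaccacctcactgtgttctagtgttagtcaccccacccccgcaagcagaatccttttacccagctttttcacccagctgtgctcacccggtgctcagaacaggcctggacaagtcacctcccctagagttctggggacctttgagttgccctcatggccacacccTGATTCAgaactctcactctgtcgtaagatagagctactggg
Cd274: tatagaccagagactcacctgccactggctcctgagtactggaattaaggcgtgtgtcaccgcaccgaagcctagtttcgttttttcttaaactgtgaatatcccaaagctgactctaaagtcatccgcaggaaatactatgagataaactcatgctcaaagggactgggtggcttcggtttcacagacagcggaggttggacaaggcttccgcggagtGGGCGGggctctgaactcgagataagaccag
Icosl: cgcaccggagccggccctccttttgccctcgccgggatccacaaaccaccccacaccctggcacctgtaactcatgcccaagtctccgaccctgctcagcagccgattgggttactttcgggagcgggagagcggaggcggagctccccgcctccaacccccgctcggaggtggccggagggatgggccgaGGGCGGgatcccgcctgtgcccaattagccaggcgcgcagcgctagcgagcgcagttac

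The AP-1 match of Cd80 lies 42 to 36 bases before the start, and 6.75% of the 32851 promoters in the table hold this motif in the same window. The GC boxes lie 31 to 26 bases before the start of Cd274 and 59 to 54 bases before that of Icosl, and 32.7% of promoters hold one. Fscn1 had a CREB site (TGACGTCA, in 1.55% of promoters) and a TATA box (TATAAA, 12.4%), and Pdcd1lg2 had none of the 11 motifs searched on both strands. The others were an NF-kB site (in 0.356% of promoters), its short form (GGGANTTCC, 1.43%), an interferon response element (2.98%), an Ets-IRF element (2.3%), a STAT site (TTCNNNGAA, 7.02%), a PU.1 site (GAGGAAGT, 2.44%) and an E-box (CACGTG, 6.02%). None of those was found in the windows of the 5 genes. The NF-kB forms and the interferon and Ets-IRF elements are written alike and can overlap. A match describes letters only.

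Among the receptors, Ccr7 (chr11:99144196-99155077, minus strand) had the widest range of levels. It had 7.16 and 7.23 log2 RPKM in KO pre-cDC2, 3.67 and 8.01 in WT pre-cDC2, 0.19, 1.15 and 0.11 in KO pre-cDC1, and 1.18, 1.22 and 2.89 in WT pre-cDC1. All pre-cDC2 libraries were above all pre-cDC1 libraries, and WT pre-cDC2 replicate 2, with 345 reads against 5680 in replicate 3, lay between the cell types. Ccr7 was 105-fold higher in pre-cDC2 than in pre-cDC1 of KO mice (6.71 ± 1.05, adjusted p = 0.00211). In WT mice it was 16.9-fold higher (4.08 ± 1.05, adjusted p = 0.0355). Without WT pre-cDC2 replicate 2 the WT difference was 6.25 (adjusted p = 0.000598), and without replicate 3 it was 1.90 (adjusted p = 0.146). The WT call held in 5 of 19 alternatives, and leaving out any library other than WT pre-cDC2 replicate 2 or WT pre-cDC1 replicate 3 ended it, with adjusted p of 0.0519 to 0.146.

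T cells express Ccr7, and the level of Ccr7 moved with the T cell marker list across libraries. Both were high in 3 pre-cDC2 libraries, intermediate in WT pre-cDC2 replicate 2 and low in pre-cDC1. The 3 genes most like Ccr7 in profile over the 10 libraries were the T cell receptor segments Trbv12-1, Trbj2-6 and Trbv2 (Pearson r = 0.992, 0.991 and 0.990). Cd274 had Rasgrp1, Baiap3 and Sorl1 as its nearest profiles (r = 0.989, 0.982 and 0.981), and Rasgrp1 is a Ras activator of T cells. The part of T cell RNA in the Ccr7 and Cd274 differences was not tested. These r values are descriptions across libraries that fall into 2 cell types.

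**Figure D1:**
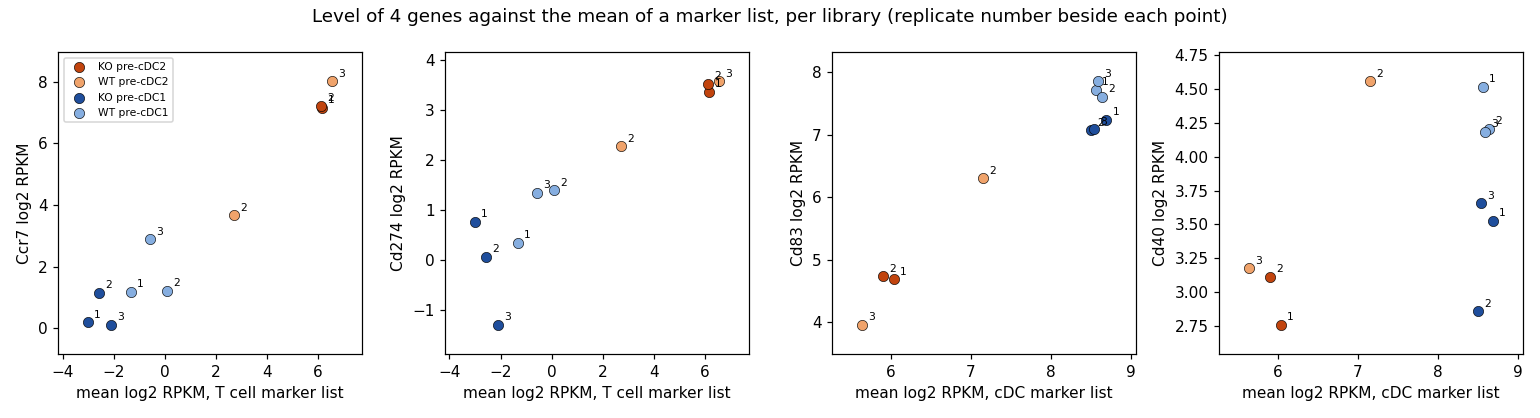
Level of Ccr7 and Cd274 (log2 RPKM) against the mean log2 RPKM of the T cell marker list, and of Cd83 and Cd40 against that of the cDC marker list, 1 point per library with its replicate number, coloured by group. WT pre-cDC2 replicate 2 has a T cell mean of 2.72 and a cDC mean of 7.15 and lies between the other pre-cDC2 libraries and pre-cDC1 for Ccr7, Cd274 and Cd83, but not for Cd40.

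Cd40 (chr2:165055627-165072948, plus strand) did not follow the cell types. It had 2.76 and 3.11 log2 RPKM in KO pre-cDC2, 4.56 and 3.17 in WT pre-cDC2, 3.53, 2.86 and 3.66 in KO pre-cDC1, and 4.52, 4.21 and 4.18 in WT pre-cDC1. The cell types overlapped in both genotypes, and in both cell types every KO library was below every WT library. The difference between cell types was -0.41 ± 0.39 in KO (adjusted p = 0.512; 95% interval -1.28 to 0.46) and -0.44 ± 0.39 in WT (adjusted p = 0.539; -1.31 to 0.43). Without WT pre-cDC2 replicate 2 the WT difference was -1.13 (adjusted p = 0.0499), and without replicate 3 it was 0.25.

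Cd83 (chr13:43784775-43803132, plus strand) was among the most abundant of these genes in pre-cDC1. It had 4.69 and 4.73 log2 RPKM in KO pre-cDC2, 6.30 and 3.96 in WT pre-cDC2, 7.23, 7.07 and 7.09 in KO pre-cDC1, and 7.72, 7.61 and 7.85 in WT pre-cDC1. The pre-cDC2 libraries were all lower, and in pre-cDC1 KO and WT did not overlap. Cd83 was 5.35-fold lower in pre-cDC2 of KO mice (-2.42 ± 0.51, adjusted p = 0.00965) and 6.04-fold lower in pre-cDC2 of WT mice (-2.59 ± 0.51, adjusted p = 0.0119). The WT difference was -3.77 without WT pre-cDC2 replicate 2 (adjusted p = 2.61e-06) and -1.42 without replicate 3 (adjusted p = 0.000442). Across the 19 alternatives it passed the threshold in 15 in KO and in 16 in WT. In KO the call was lost without KO pre-cDC2 replicate 1 (adjusted p = 0.0679) and without replicate 2 (0.0577).

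Fscn1 (chr5:142960343-142973185, plus strand) was low throughout. It had 1.29 and 1.29 log2 RPKM in KO pre-cDC2, 3.36 and 0.80 in WT pre-cDC2, -2.31, 0.12 and -1.88 in KO pre-cDC1, and -0.10, 0.01 and 0.95 in WT pre-cDC1. WT pre-cDC2 replicate 2 had 424 reads of it, and the other libraries had between 6 and 72. The difference between cell types was 2.64 ± 0.91 in KO without passing the threshold (adjusted p = 0.071) and 1.79 ± 0.91 in WT (adjusted p = 0.262). The high WT library sets the WT value, which was 0.51 without WT pre-cDC2 replicate 2 (adjusted p = 0.778) and 3.07 without replicate 3 (adjusted p = 0.094). The KO difference passed without KO pre-cDC1 replicate 2 (3.38, adjusted p = 0.0306) and without WT pre-cDC2 replicate 2 (adjusted p = 0.0407) or 3 (0.037).

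Socs2 (chr10:95385362-95417180, minus strand) had 115 and 89 reads in KO pre-cDC2, 41 and 130 in WT pre-cDC2, 0, 0 and 0 in KO pre-cDC1, and 1, 0 and 29 in WT pre-cDC1. It was found in every pre-cDC2 library and in 2 of the 6 pre-cDC1 libraries. Against a floor of 3 reads per library, Socs2 was at least 33.3-fold higher in KO pre-cDC2 than in KO pre-cDC1 (adjusted p = 0.0176). This call was lost without KO pre-cDC2 replicate 1 (adjusted p = 0.14) and without replicate 2 (0.114). In WT mice the difference was 4.80 ± 2.12 (adjusted p = 0.195; 5.78 and 0.152 without WT pre-cDC2 replicate 2, 3.82 and 0.424 without replicate 3). It passed in WT with voom on recovered reads (4.20, adjusted p = 0.0402). Like Pdcd1lg2, it exceeded 0 log2 RPKM in 3 libraries, all pre-cDC2, and entered the test through them. Its p-values between the cell types are therefore not counted as support for a difference. T cells also express Socs2, and its 41 reads in WT pre-cDC2 replicate 2 were the lowest of the pre-cDC2 libraries. The part of T cell RNA in this difference was not tested.

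**Figure D2:**
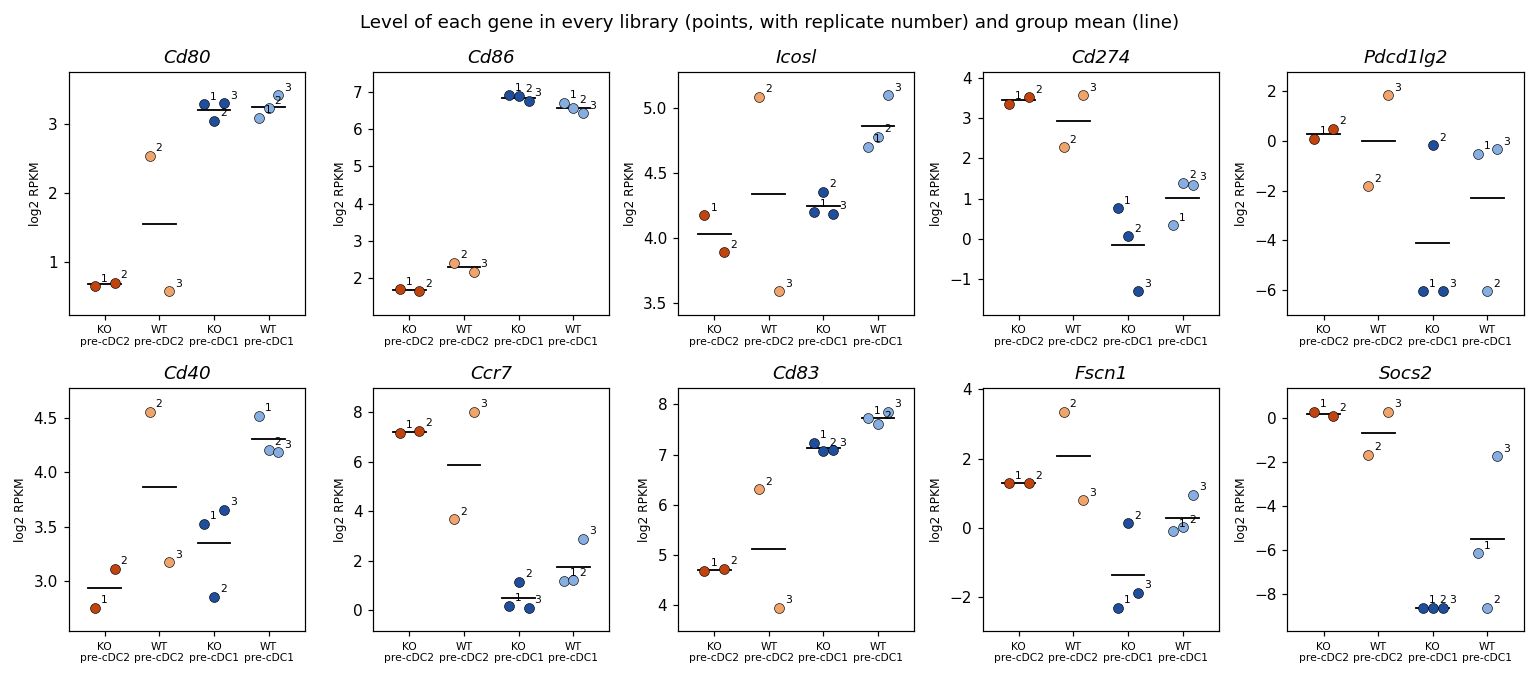
Level of each of the 10 genes (log2 RPKM, own scale per panel) in KO pre-cDC2, WT pre-cDC2, KO pre-cDC1 and WT pre-cDC1. Points are libraries with their replicate number and lines are group means. Cd80, Cd86 and Cd83 are lower in every pre-cDC2 library than in every pre-cDC1 library, Ccr7 and Cd274 are higher, and the 2 WT pre-cDC2 libraries lie far apart for most genes but not for Cd86. The lowest values of Socs2 and Pdcd1lg2, -8.59 and -6.06, stand for 0 reads.

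Pdcd1lg2 and Socs2 passed the filter on low values through pre-cDC2 alone, so the counts between the cell types are given for the other 8 genes. In KO mice, 5 of these 8 passed the threshold, where 20.8% of all tested genes did. Ccr7 and Cd274 rose in pre-cDC2 (10.7% of tested genes rose), and Cd86, Cd80 and Cd83 fell (10.1% fell). In WT mice 4 of the 8 passed, where 11.5% of all tested genes did, namely Ccr7 upward (4.88% of tested genes) and Cd86, Cd83 and Cd80 downward (6.59%). The ranges of the cell types did not overlap for 7 of the 8 genes in KO mice, all but Cd40, where 51.7% of tested genes did not overlap, and for 5 of the 8 in WT mice, where 38.7% did not. Both comparisons have their own libraries, yet WT pre-cDC2 replicate 2 enters the estimate of the spread in each. Which genes passed in WT mice depended on the WT pre-cDC2 library left out, as given for each gene above. With voom on recovered reads the WT calls were Cd86, Cd83, Cd274 and Socs2, while Ccr7 (adjusted p = 0.149) and Cd80 (0.0527) did not pass. With no filter on low values, only Cd86 passed in either genotype.

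The genes also made up different shares of their summed RPKM. In KO pre-cDC2, Ccr7 took 67.0% and 67.8% of the sum and Cd83 12% in both libraries. In WT pre-cDC2, Ccr7 took 7.22% in replicate 2 and 80.9% in replicate 3, and Cd83 took 44.9% and 4.88%. In KO pre-cDC1, Cd83 took 45.7% to 47.9% and Cd86 38.0% to 40.3%, against 55.4% to 58.8% and 21.9% to 27.8% in WT pre-cDC1. The pre-cDC1 profile was thus made mostly of Cd83 and Cd86, and that of 3 pre-cDC2 libraries mostly of Ccr7.

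**Figure D3:**
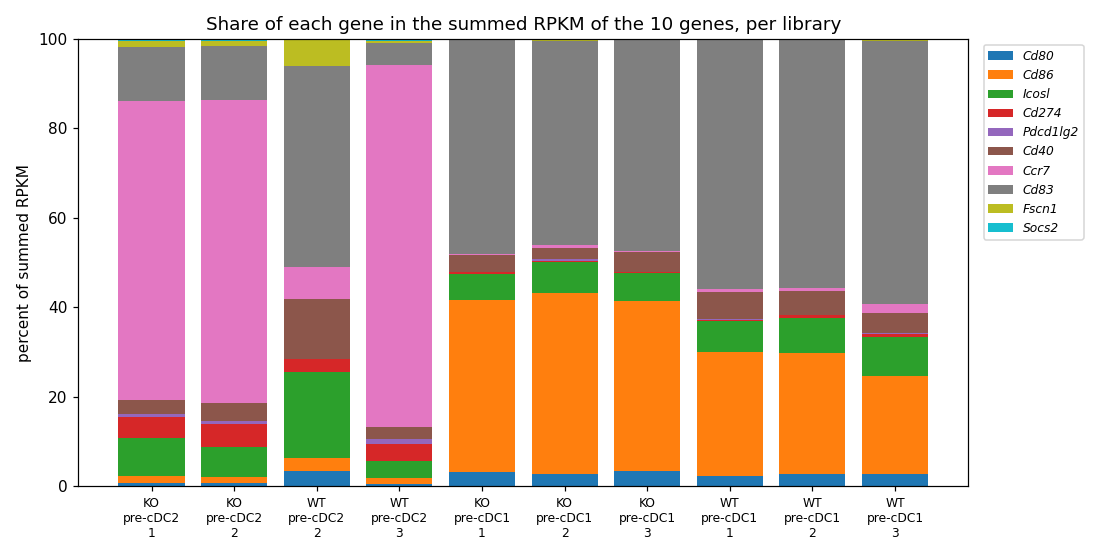
Percent of the summed RPKM of the 10 genes taken by each gene, 1 bar per library, in the order KO pre-cDC2, WT pre-cDC2, KO pre-cDC1 and WT pre-cDC1. Ccr7 takes 67.0% and 67.8% in KO pre-cDC2 and 80.9% in WT pre-cDC2 replicate 3, but 7.22% in WT pre-cDC2 replicate 2, and Cd83 and Cd86 fill most of the pre-cDC1 bars.

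Deletion of Adam10 was compared within each cell type. In pre-cDC1, 0 of the 10 genes passed the threshold, and over all genes 0.0271% did. At an unadjusted p below 0.05, limma gave 1 of the 10 (Cd40) and 1335 of all tested genes, and voom on recovered reads called 0 of the 10. Leaving Pdcd1lg2 and Socs2 aside, 7 of 8 estimates were negative and their median was -0.78, where 50.6% of all tested genes were negative with a median of -0.00. KO and WT ranges did not overlap for 5 genes, where 17.2% of tested genes did not: Cd40, Cd83, Icosl and Ccr7 were lower in KO, where 9.27% of tested genes were, and Cd86 was higher in KO, where 7.88% were.

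Cd40 had 403, 242 and 325 reads in the KO libraries of pre-cDC1 and 699, 563 and 630 reads in the WT libraries. Its level averaged 3.35 ± 0.43 log2 RPKM in KO and 4.30 ± 0.19 in WT (SD, n = 3 each). The difference was -0.96 ± 0.35 (95% interval -1.74 to -0.18, unadjusted p = 0.0213), and it did not pass the correction over all genes (adjusted p = 0.43). It was negative in all 18 alternative fits, from -1.11 to -0.71.

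Cd83 averaged 7.13 ± 0.09 log2 RPKM in the KO and 7.73 ± 0.12 in the WT libraries of pre-cDC1 (SD, n = 3 each). The gap between the groups was larger than the spread within them. The limma difference of -0.60 ± 0.46 had an adjusted p of 0.791, with an error pooled over all groups, among them the WT pre-cDC2 pair at 6.30 and 3.96. Leaving out WT pre-cDC2 replicate 2 gave an adjusted p of 0.0354 for Cd83, and leaving out replicate 3 gave 0.0348, with the same difference of -0.60. These were the only 2 of 18 alternatives in which Cd83 passed: with only the pre-cDC1 groups in the fit its adjusted p was 0.0855, and with library weights it was 0.427. Icosl, at 4.25 ± 0.09 in KO and 4.86 ± 0.21 in WT, differed by -0.61 ± 0.32 (adjusted p = 0.625). Its adjusted p was 0.122 without WT pre-cDC2 replicate 2.

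Cd86 went the other way in pre-cDC1, with 6.86 ± 0.08 log2 RPKM in KO and 6.57 ± 0.14 in WT (SD, n = 3 each). The difference of 0.28 ± 0.13 did not pass the threshold (adjusted p = 0.56; 95% interval -0.01 to 0.58). Cd80 stood at 3.21 ± 0.14 in KO and 3.25 ± 0.16 in WT, a difference of -0.03 ± 0.42 (adjusted p = 1; interval -0.98 to 0.91). The 95% interval for Cd80 spans changes of nearly 1 log2 unit in both directions.

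The genes with few pre-cDC1 reads varied more. Ccr7 differed by -1.28 ± 0.94 (adjusted p = 0.776), on 23, 43 and 16 reads in KO and 40, 41 and 149 in WT. Cd274, with 63, 37 and 11 reads in KO and 41, 85 and 93 in WT, differed by -1.18 ± 0.57 (adjusted p = 0.585). Fscn1 had 6, 32 and 6 reads in KO and 25, 27 and 59 in WT, a difference of -1.64 ± 0.82 (adjusted p = 0.601). Socs2 and Pdcd1lg2 had too few reads for a direction. The T cell, NK cell and pre-cDC2 marker lists also leaned to lower values in KO than in WT libraries of pre-cDC1: 13 of 14, 8 of 8 and 6 of 6 genes had negative estimates, with medians of -1.50, -2.35 and -2.21 and 0 genes past the threshold. Monocyte and macrophage markers gave 7 negative estimates of 7 tested. Of the B cell list, whose cells also express Cd40, 5 of 10 genes were tested, and all 5 had negative estimates (median -3.25, 0 past the threshold) and KO libraries below WT libraries without overlap. The summed RPKM of these 5 genes was 344 to 395 in KO and 589 to 691 in WT libraries of pre-cDC1. Fcer2a, a B cell IgE receptor, had 0, 0 and 0 reads in KO and 20, 75 and 10 in WT, and Pax5, a B cell transcription factor, had 0 reads in all 6. The part of these cells in the lower Ccr7, Cd274, Fscn1 and Cd40 values was not tested. By contrast, means of the cDC marker list overlapped, at 8.50 to 8.69 in KO and 8.56 to 8.64 in WT. Means of the pre-cDC1 marker list were higher in KO without overlap, at 7.31 to 7.41 against 7.03 to 7.12 in WT. Of its 6 genes, 5 had positive estimates and 1 a negative one (median 0.27), with 0 past the threshold. The part of this shift in the higher Cd86 value was not tested.

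In pre-cDC2, 0 of the 10 genes passed between KO and WT, and over all genes 0.0676% did. At an unadjusted p below 0.05 there were 1 of the 10 (Cd86) and 987 of all tested genes, and voom on recovered reads called 0 of the 10. Leaving Pdcd1lg2 and Socs2 aside, the median estimate was -0.52, against 0.00 for all tested genes. It was -0.01 without WT pre-cDC2 replicate 2 and -1.32 without replicate 3. KO was below WT without overlap for Cd86 and Cd40, where 14.6% of tested genes were. Cd86 averaged 1.66 ± 0.04 log2 RPKM in KO pre-cDC2 and 2.28 ± 0.17 in WT pre-cDC2 (SD, n = 2 each). It differed by -0.62 ± 0.16 (unadjusted p = 0.00335, adjusted p = 0.428), with the same sign in all 18 alternatives, from -0.74 to -0.49. Cd40, with 226 and 257 reads in KO and 1101 and 342 in WT, differed by -0.93 ± 0.42 (adjusted p = 0.754). This difference was -0.24 without WT pre-cDC2 replicate 2.

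The estimates depended on which WT library stood for WT, and Cd86 and Cd40 alone kept their sign without either. Without WT pre-cDC2 replicate 3 the estimates were 3.53 for Ccr7, -1.59 for Cd83 and -1.87 for Cd80. They were -1.62 for Cd40, -1.05 for Icosl and -0.74 for Cd86. Without replicate 2 the estimate changed sign for Ccr7 (-0.82), Cd83 (0.75), Cd80 (0.10) and Icosl (0.44), as well as for Cd274, Fscn1, Socs2 and Pdcd1lg2. Each such fit gives the lone WT library the spread estimated from the remaining groups, so only effect sizes are given here. The T cell list was higher in KO for 13 of 14 genes (median 1.52, 0 past the threshold), and its summed RPKM was 1859 and 1721 in KO and 143 and 2629 in WT. Its part in the pre-cDC2 values was not tested.

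**Figure D4:**
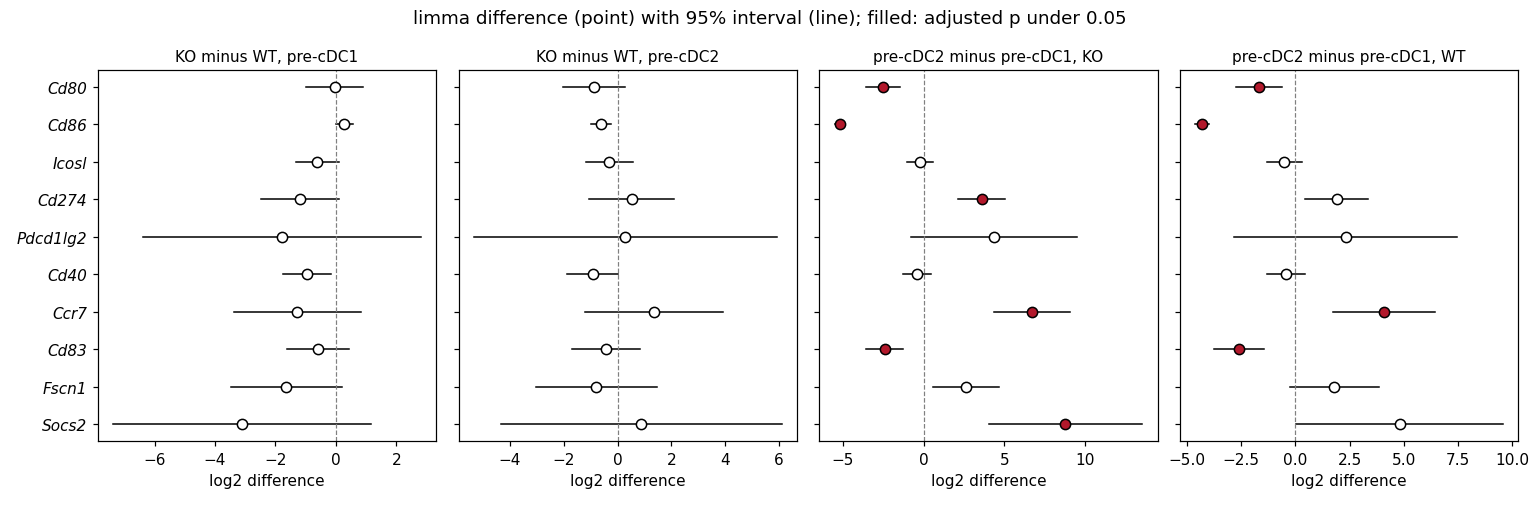
limma log2 differences of the 10 genes with 95% intervals, for KO minus WT within pre-cDC1 and within pre-cDC2 and for pre-cDC2 minus pre-cDC1 in KO and in WT mice. Filled points passed an adjusted p of 0.05: none between KO and WT, 6 between the cell types in KO mice and 4 in WT mice. The 6 include Socs2, which passed the filter on low values through pre-cDC2 alone. Each panel has its own scale.

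The effect of the deletion was compared between the cell types by the interaction, which 0 of the 10 genes passed, as did 0.0203% of all tested genes. At an unadjusted p below 0.05 there were 1 of the 10 (Cd86) and 713 of all tested genes, and voom on recovered reads called 0 of the 10. Cd86 had KO below WT in pre-cDC2 and KO above WT in pre-cDC1, without overlap in either. Ranges apart in opposite directions, in this or the reverse arrangement, were found in 1.2% of tested genes. The interaction of Cd86 was -0.90 ± 0.20 (unadjusted p = 0.00154, adjusted p = 0.642). Cd40 had KO below WT without overlap in both cell types, as did 2.12% of tested genes, and its interaction was 0.03 ± 0.55 (95% interval -1.21 to 1.26; 0.72 without WT pre-cDC2 replicate 2 and -0.66 without replicate 3). The interaction of Cd83 was 1.35 without WT pre-cDC2 replicate 2 and had the opposite sign, -0.998, without replicate 3. Without replicate 3 the interaction was -1.03 for Cd86, -1.83 for Cd80 and 4.80 for Ccr7.

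Other costimulatory ligands and receptors were taken from a list of 23 names, of which 14 genes were tested. KO minus WT had a median of -0.36 in pre-cDC2 (-0.00 without WT pre-cDC2 replicate 2, -0.39 without replicate 3). The median was -0.09 in pre-cDC1, and 0 of the 14 passed between KO and WT in either cell type. Tnfsf9, the 4-1BB ligand, came nearest, with 4.01, 3.66 and 3.93 log2 RPKM in the KO and 5.77, 6.12 and 6.38 in the WT libraries of pre-cDC1. Its difference of -2.22 ± 0.36 had an adjusted p of 0.0745 and passed in 4 of 18 alternatives, among them the fits without WT pre-cDC2 replicate 2 (0.00246) and replicate 3 (0.0023). Between the cell types, 4 of the 14 rose (10.7% of all tested genes did) and 6 fell (10.1%) in KO mice, and 2 rose (4.88%) and 4 fell (6.59%) in WT mice. Btnl2, among the genes that fell in WT mice, exceeded 0 log2 RPKM in pre-cDC1 libraries only and entered the test through them. The WT counts were 4 up and 4 down without WT pre-cDC2 replicate 2. T cell markers were higher in pre-cDC2 too: 14 of 14 in KO mice (median 9.08, 14 past the threshold) and in WT mice (median 5.26, 10 past it). Of these, Cd3e, Cd3g, Lat, Tcf7 and Bcl11b exceeded 0 log2 RPKM in pre-cDC2 libraries only and entered the test through them. The part of T cell RNA in the genes that rose in this and the next lists was not tested. Tnfsf9 was higher in pre-cDC2 in KO (3.52 ± 0.41, adjusted p = 0.000472) and in WT (1.68 ± 0.41, adjusted p = 0.0278). The WT difference was 0.82 without WT pre-cDC2 replicate 2 and 2.53 without replicate 3. Btla, an inhibitory receptor, was lower in pre-cDC2 in KO (-3.26 ± 0.24) and in WT (-2.80 ± 0.24), and so was Cd24a, a glycoprotein of cDC1 and B cells (-4.00 ± 0.44 in KO and -3.25 ± 0.44 in WT). Cd1d1, which presents lipids to NKT cells, was also lower (-1.36 ± 0.24 in KO and -1.71 ± 0.24 in WT).

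Of the receptors and partners that these ligands meet on T cells, 5 of 8 listed genes were tested. Cd28 passed between the cell types in KO mice (10.67 ± 1.90, adjusted p = 0.00412) but not in WT mice (5.86 ± 1.90, adjusted p = 0.0824), and the other 4 genes passed in no comparison. Cd28 passed in WT as well without WT pre-cDC2 replicate 2 (8.15, adjusted p = 0.04). Its levels were 5.72 and 5.55 log2 RPKM in KO pre-cDC2, 1.87 and 6.45 in WT pre-cDC2 and -7.96 to 0.53 in pre-cDC1, and it also belongs to the T cell marker list.

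Among 30 other genes of the DC maturation programme, 23 were tested. Between KO and WT, 0 passed in pre-cDC2 or in pre-cDC1. The medians were -0.19 in pre-cDC2 (-0.06 without WT pre-cDC2 replicate 2, -0.43 without replicate 3) and -0.21 in pre-cDC1. Between the cell types, 4 rose (10.7% of all tested genes did) and 10 fell (10.1%) in pre-cDC2 of KO mice, and 4 rose (4.88%) and 6 fell (6.59%) in WT mice. In WT mice 6 rose and 9 fell without WT pre-cDC2 replicate 2. Adam8, a metalloprotease, fell by 5.88 ± 0.62 in KO and by 5.39 ± 0.62 in WT. Il15, a cytokine for T and NK cells, fell by 4.39 ± 0.40 in KO and by 3.06 ± 0.40 in WT, and Cxcl16, a chemokine, fell by 4.96 ± 0.62 in KO and by 4.42 ± 0.62 in WT. Without that library the WT values were -4.18 for Adam8, -2.86 for Il15 and -5.84 for Cxcl16, all past the threshold. Il12b, the p40 chain of IL-12, was listed at 0 reads (-6.32) in all pre-cDC2 libraries and had -1.13 to 1.22 log2 RPKM in pre-cDC1. It is among the genes that fell in WT mice but entered the test through pre-cDC1 alone, as did Apol7c and Cacnb3. Its call is not counted as support for a difference. Bcl2l1, a survival gene, rose in both genotypes (2.60 ± 0.49 in KO, adjusted p = 0.00522; 1.79 in WT, adjusted p = 0.0436). The WT value was 2.73 without WT pre-cDC2 replicate 2 (adjusted p = 0.00129) and 0.85 without replicate 3 (adjusted p = 0.211).

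The CD40 and NF-kB list had 23 genes, all tested. In pre-cDC1, 19 of the 23 estimates were negative with a median of -0.25, and 0 passed. The inhibitor genes Nfkbia and Nfkbiz came nearest, both at an adjusted p of 0.0526. Nfkbia had 7.46, 6.85 and 7.15 log2 RPKM in the KO and 8.25, 8.43 and 8.26 in the WT libraries of pre-cDC1, a difference of -1.17 ± 0.16. Nfkbiz had 4.71, 4.83 and 4.66 in KO and 5.42, 5.61 and 5.67 in WT, a difference of -0.84 ± 0.11. In both genes all KO libraries were below all WT libraries. Nfkbia passed in 5 and Nfkbiz in 4 of 18 alternatives, among them the fits without WT pre-cDC2 replicate 2 (0.019 and 0.0134), but neither did with only the pre-cDC1 groups in the fit (0.0862 and 0.0534). In pre-cDC2 the median was -0.19 (-0.11 without WT pre-cDC2 replicate 2, -0.16 without replicate 3) and 0 passed. Nfkbia differed by -0.80 ± 0.20 there (adjusted p = 0.415), and by -0.83 without replicate 2. Between the cell types 3 rose and 2 fell in KO mice, or 21.7% of the list where 20.8% of all tested genes passed, and 2 rose and 1 fell in WT mice, or 13% where 11.5% did. These shares are near those of all tested genes. The called genes include Nfkbiz upward (1.72 ± 0.13 in KO and 1.09 ± 0.13 in WT) and the kinase gene Chuk downward (-1.18 ± 0.21 in KO and -0.87 ± 0.21 in WT). The WT call of Chuk was lost without WT pre-cDC2 replicate 2 (adjusted p = 0.0717) or 3 (0.0671), and that of Nfkbiz held (1.13 without replicate 2).

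Around Socs2, 11 of 14 genes of GM-CSF and STAT5 signalling were tested. Between KO and WT 0 passed in either cell type. The medians were -0.06 in pre-cDC2 (0.19 without WT pre-cDC2 replicate 2, -0.68 without replicate 3) and -0.08 in pre-cDC1. Between the cell types 7 rose (10.7% of all tested genes did) and 1 fell (10.1%) in KO mice, with a median of 1.25 where that of all tested genes was 0.09. The 7 include Cish, which exceeded 0 log2 RPKM in pre-cDC2 libraries only and entered the test through them. Its difference between the cell types is not counted as support. In WT mice 5 rose (4.88%) and 1 fell (6.59%), with a median of 1.24 against 0.06, but 3 rose and 3 fell without WT pre-cDC2 replicate 2 (median 0.74). The feedback inhibitor Socs3 rose by 3.08 ± 0.31 in KO and 2.85 ± 0.31 in WT, the kinase Pim2 by 4.22 ± 0.53 in KO and 3.14 ± 0.53 in WT, and the transcription factor Stat5a by 1.25 ± 0.29 in KO and 1.24 ± 0.29 in WT. The GM-CSF receptor chain Csf2ra fell by 2.27 ± 0.36 in KO and by 1.81 ± 0.36 in WT. Without WT pre-cDC2 replicate 2 the WT values were 3.21 for Socs3, 4.28 for Pim2 and -2.62 for Csf2ra, all past the threshold, whereas Stat5a lost its call (0.74, adjusted p = 0.0735). Pim2 had 6.32 and 6.2 log2 RPKM in KO pre-cDC2 and 4.16 and 6.43 in WT pre-cDC2, lowest in replicate 2, where the T cell marker mean was lowest as well. The part of T cell RNA in this list was not tested.

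The nearest profiles over the 10 libraries also grouped the genes. Cd80 was most like Btk, Rraga and Zfp57 (r = 0.995, 0.995 and 0.994), Cd86 like Vrk2, H2-Ob and Ppt1 (0.997 each), and Cd83 like Il1b, Fam129a and Lyl1 (0.994, 0.992 and 0.991). Icosl was most like Lat2, Pim1 and Fam105a (0.970, 0.968 and 0.957), and Cd40 like H2-T23, Dnajc30 and Fibp (0.962, 0.952 and 0.946). Fscn1 was close to Col4a1 and Vcl (0.969 and 0.958), Pdcd1lg2 like Fryl, Gprin3 and Chst10 (0.971, 0.964 and 0.956), and Socs2 like Vpreb1, Plod2 and Cxcr5 (0.976, 0.972 and 0.969). Within the 10 genes, Cd80 and Cd83 had r = 0.975, Cd80 and Cd86 0.911, and Cd274 and Ccr7 0.924, while Cd80 and Ccr7 had -0.956. These values describe 10 libraries that share 2 cell types, and they are high for any gene that differs strongly between them.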

How the data were processed

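RNA was amplified from 2 ng of total RNA with SMARTSeq v2 and sequenced as paired ends, per the labels' protocols. The authors used STAR 2.3, featureCounts 1.5.0, edgeR and R 3.3.3 with the build GRCm38 (mm10), per the submitters' processing notes, which name no roles. The authors deposited log2 RPKM values for 52550 genes. For the annotation release, the strand setting and the sort, the entry is "not given in the sources used here". With gene lengths from GENCODE mouse release M21, all 490350 values of 49035 genes gave whole reads within 0.001. PCR reads carry no molecular identifiers here, and floors therefore cover counting error only.

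A mean for each of the 4 groups was fitted over the 10 libraries with limma 3.58.1 (R 4.3.3; eBayes with trend, 6 residual and 3.31 prior degrees of freedom). Tests were two-sided and covered the 14787 genes that exceeded 0 log2 RPKM in 2 or more libraries, with no further pseudocount and Benjamini-Hochberg adjustment within each of 5 comparisons. All 10 members passed this filter, Pdcd1lg2 and Socs2 through pre-cDC2 alone; counts over the other 8 were chosen after the data were seen. A range is called apart when every library of a group lies beyond every library of the other. All 10 genes are named. Of each gene list, up to 4 genes with the smallest p are named. Bcl2l1 was chosen after its values were seen, and some list genes that passed the filter through 1 cell type alone are named for that reason. The 3 nearest profiles are the tested genes, predicted ones aside, with the highest Pearson r. For Fscn1, 1 of them is not reported here. The genes, lists and markers were chosen with earlier results of these data known. The procedure was tested on simulated data. Promoters are from RefSeq. Alternatives were no filter, a stricter filter, 1 RPKM added, quantile normalization, only the compared groups, library weights, replicate blocks, voom on recovered reads, and leaving out each library.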

Additional observations from a re-analysis of the deposited data

Results flagged for a closer look

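Cd86 differed in opposite directions between KO and WT in the 2 cell types: KO minus WT was -0.62 ± 0.16 in pre-cDC2 and 0.28 ± 0.13 in pre-cDC1, with every KO library on 1 side of every WT library in each. The difference of these differences was -0.90 ± 0.20 on the log2 scale (limma, unadjusted p = 0.00154) and did not pass the correction over 14787 genes (adjusted p = 0.642). It ranged from -1.03 to -0.78 over 18 alternatives and passed in 1 of them, without WT pre-cDC2 replicate 3 (-1.03, adjusted p = 0.0288).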

How the results depend on the processing

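Over 17 to 19 alternatives per gene and comparison, Cd86 stayed called between the cell types in both genotypes. Genes passing between the cell types in KO numbered 6, Socs2 among them, but 1 with no filter, 3 with the replicate block of genotype and number, and 4 to 7 without single libraries. In WT they numbered 4, but 1 with no filter, 1 with only the compared groups, 2 with library weights, 2 with the replicate block, 1 with the replicate block of genotype and number, and 2 to 6 when single libraries were left out. Between KO and WT the counts were 0, and 0 to 1 in pre-cDC1, 0 to 6 in pre-cDC2 and 0 to 4 for the interaction without single libraries. Deviations of same-numbered libraries from their group means correlated between -0.0301 and 0.0315. With so few libraries per group, this cannot decide whether equal numbers mark the same animal or day. The labels do not say it either. The replicate block changed no call of the 10 genes between KO and WT. With this block, calls over all tested genes between KO and WT numbered 0 in pre-cDC1 and 2 in pre-cDC2. Over all tested genes, calls numbered 4 (0 to 111 under the alternatives) between KO and WT in pre-cDC1, 10 (0 to 1024) in pre-cDC2, 3 (0 to 456) for the interaction, and between the cell types 3074 (1094 to 4014) in KO and 1697 (217 to 2722) in WT. The cause of these shifts was not tested.

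Signs reversed when single libraries were left out, over these ranges. In pre-cDC1, KO minus WT of Cd80 ran from -0.11 to 0.051. In pre-cDC2, KO minus WT ran from -1.87 to 0.10 for Cd80, -1.05 to 0.44 for Icosl, -0.12 to 1.17 for Cd274, -1.54 to 2.13 for Pdcd1lg2, -0.82 to 3.53 for Ccr7, -1.59 to 0.75 for Cd83, -2.07 to 0.49 for Fscn1 and -0.096 to 1.86 for Socs2. Between the cell types in WT, it ran from -1.27 to 0.23 for Icosl and -1.13 to 0.25 for Cd40. The interaction ran from -1.83 to 0.13 for Cd80, -0.44 to 1.05 for Icosl, -0.66 to 0.72 for Cd40, -0.998 to 1.35 for Cd83 and -0.43 to 2.13 for Fscn1. Other settings reversed KO minus WT of Pdcd1lg2 in pre-cDC2 (-0.12 with 1 RPKM added) and 3 interactions: Cd40 (-0.057 with quantile normalization, -0.010 with library weights, -0.12 with the replicate block, -0.0042 with voom), Cd83 (-0.059 with the replicate block) and Fscn1 (-0.078 with 1 RPKM added).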
